A study of Rattus norvegicus with 20 samples.

Results

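The change from postnatal day 3 (P3) to postnatal day 8 (P8) in rat globular bushy cells was taken from 10 of the 20 arrays of the series: all 6 P3 arrays and P8 replicates 1 to 4. P8 replicates 5 to 9 were left out because their bacterial spike-in controls, RNAs added in fixed amounts, stood at log2 12.94 to 13.85, against 8.62 to 9.01 at P3 and 8.59 to 9.36 in P8 replicates 1 to 4. Each array held the RNA of 200 bushy cells of 1 Sprague Dawley rat. The cells had been marked by Cholera toxin B put into the opposite medial nucleus of the trapezoid body (MNTB) 24 hours before death, cut by laser from 12 µm frozen sections of the ventral cochlear nucleus, and pooled per animal. Their RNA was amplified linearly in 2 rounds and hybridised to 1 array per animal. P3 was labelled as just after the calyx of Held has formed and P8 as the juvenile synapse, and 5 arrays of the mature synapse at postnatal day 21 (P21) enter only alternative fits. All animals of both ages carried the tracer, so no untraced control is part of the comparison, and sex was not among the labels. The labels call the animals biological replicates without naming litters, so p-values measure the spread between these animals.

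Globular bushy cells receive auditory nerve input in the ventral cochlear nucleus and send a thick axon across the midline to the MNTB, where it ends in a single giant glutamatergic terminal, the calyx of Held. Between the first days after birth and the onset of hearing this terminal enlarges, its axon becomes myelinated, and action potentials become short and can follow each other at high rates. Low- and high-threshold potassium channels, fast sodium channels, calcium-binding proteins and the release machinery are known determinants of that timing. The comparison asks which gene functions rose and which fell over the first interval of this growth.

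Levels are log2(intensity + 1), and a difference is the P8 mean minus the P3 mean on that scale with its standard error (6 against 4 arrays). A probe set was tested if it exceeded log2 4 on at least 4 arrays, and a gene was read from its brightest tested probe set, which gave 11615 genes. A gene was called when limma's p-value, adjusted by Benjamini-Hochberg over all probe sets tested, was below 0.05. Of all genes tested, 906 rose (7.80%) and 848 fell (7.30%), and the median difference over all of them was 0.0011. Lists of genes are read against these shares. The rises had a median of 0.89 and the falls of -1.04. Among called genes 360 rose and 456 fell by more than 2-fold, and 16 rose and 14 fell by more than 8-fold. Of the 488 called genes with more than 1 tested probe set, 334 had all of them differing in the same direction. Among genes named below, for example, 1 probe set was called of the 2 of Htr2c and Cacna1a, of the 3 of Nsf, Syn2, Nfasc and Kcnt1, and of the 4 of Gabbr1. The P8 arrays all lay above the P3 arrays for 8.39% of genes and all below for 6.72%, and 742 of the rises and 629 of the falls were among these. Median intensity was 27.7 to 31.5 at P3 and 23.8 to 31.2 at P8. The 3' minus 5' signal of Gapdh, which grows as RNA is shorter, averaged 2.91 ± 0.272 on the P3 arrays (SD, n = 6) and 3.27 ± 0.419 on the P8 arrays (SD, n = 4) (exact permutation test, two-sided, p = 0.138, adjusted p = 0.276 over 4 array measures). The same measure of Actb went the other way, 4.70 ± 0.302 and 4.29 ± 0.187 (exact permutation test, two-sided, p = 0.0571, adjusted p = 0.229). With the Gapdh signal as a covariate in the fit 509 genes rose and 463 fell.

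Many calls differed when P8 replicates 5 to 9 were counted as P8. In a fit of all 20 arrays, where the P21 arrays add to the estimate of the spread and not to the difference, 12.8% of genes rose and 12.6% fell at P8. These included 358 of the 906 rises and 459 of the 848 falls. A fit of P3 and all 9 P8 arrays without P21, added after seeing the data, gave the same differences and called 616 rises and 601 falls, 272 and 351 of them shared. Adding the P21 arrays alone to the 10 arrays left 849 of the rises and 733 of the falls. Of the genes named here, 40 of 98 called rises and 52 of 76 called falls kept their call over all 20 arrays, and 7 that were not called over 10 arrays gained one. These 7 were Syt1, Syt2, Snap25, Pclo and Slc12a2, all higher at P8, and Scn3a and Marcks, both lower. All 20 arrays include P8 replicates 1 to 4, so a kept call is no independent repeat. With all 9 P8 arrays and no P21, 31 of the rises and 43 of the falls named kept their call. A difference over all 9 P8 arrays can stay above 0 while replicates 5 to 9 average below P3, as for Kcna1 and Vamp1. Mki67 and Pax6, called lower, averaged above P3 on these 5 arrays. The 5 arrays left out had median intensities of 58.9 to 67.5, above all others. Their part in these differences was not tested.

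Levels near background limit the size of some differences. Of the called genes named, 12 rises had a P3 mean below log2 4 (Htr2c, Tmem91, Mog, Cntnap1, Gabra6, Lum, Grem1, Gjb6, Abcb1a, Enpp6, Ermn and Mal) and 8 falls a P8 mean below it (Nde1, Kif23, Ptprc, Eomes, Nhlh1, Ttk, Add2 and Atf3). With a pseudocount of 16 in place of 1, Htr2c differed by 5.00, Cntnap1 by 2.31, Ermn by 1.75 and Nde1 by -0.94, and 19 of the 20 kept their call, Atf3 being the exception. Gabra6, Grem1 and Ermn exceeded log2 4 on the P8 arrays alone, and Nde1, Ptprc, Ttk, Add2 and Atf3 on P3 arrays alone. These 8 entered the test only through the age where they were high, so their direction was set by the filter and supports nothing. They remain in the counts of their lists, and any call of theirs that held over all 20 arrays supports nothing either.

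Single arrays also decided some calls. The counts fell to 594 rises and 504 falls without P3 replicate 2, to 592 and 520 without P3 replicate 4 and to 567 and 475 without P3 replicate 5. Of 174 named genes that were called, 41 lost their call in 2 to 9 of the 10 fits that each left out 1 array, with adjusted p of up to 0.111, and no named gene with an adjusted p below 0.0227 did. The 19 that lost it in 8 or 9 fits were Cacnb3, Kcnc2, Nhlh1, Kcnt1, Abcb1a, Pax2, Dhcr7, Pmvk, Eif4b, Gaa, Neurod1, Neurod6, Rab3a, Ldha, Cask, Stxbp5, Tuba4a, Gabbr1 and Kif20a. Chl1, Ttk, Nfia, Atf3, Ctsa, Laptm5, Pcdh20, L1cam and Rars1 lost it in 6 or 7 fits, Cox7a1, Gbx2, Eomes, Rplp0, Ier2 and Mcm5 in 4 or 5, and Fbxo2, Nr4a1, Ccnb2, Nfib, Pfkm, Mki67 and Rgs16 in 2 or 3.

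The 10 largest rises among bright genes whose groups did not overlap joined neuronal excitability genes with myelin genes. Htr2c, the serotonin 2C receptor, had lowest, median and highest levels of 2.72, 3.25 and 5.86 at P3 and 10.18, 11.00, 10.30 and 7.98 in P8 replicates 1 to 4, a rise of 6.18 ± 0.69 (adjusted p = 0.000974). Scn4b, the sodium channel β4 subunit linked to resurgent current, had lowest, median and highest levels of 5.38, 6.27 and 6.61 at P3 and 9.93, 9.13, 9.45 and 10.20 at P8, a rise of 3.48 ± 0.28 (adjusted p = 0.000318). Calb1, the calcium buffer calbindin-D28k, had lowest, median and highest levels of 4.21, 4.71 and 5.35 at P3 and 6.75, 9.28, 9.23 and 8.08 at P8, a rise of 3.60 ± 0.47 (adjusted p = 0.00159). All P8 arrays lay above all P3 arrays for each of these 3 genes, and the P8 arrays were most spread for Htr2c. Mobp, Mog, Cldn11 and Mbp encode proteins of central myelin. Mobp had lowest, median and highest levels of 3.69, 5.06 and 7.08 at P3 and 9.23, 10.28, 9.64 and 8.87 at P8, a rise of 4.37 ± 0.56 (adjusted p = 0.00159). Mog, Cldn11 and Mbp rose by 3.06 ± 0.34, 3.03 ± 0.52 and 2.92 ± 0.40, from means of 3.95, 8.12 and 8.10. Tmem91, a membrane protein, rose by 3.79 ± 0.56, Itih3, a secreted partner of hyaluronan, by 3.25 ± 0.63, and Ctxn2, a cortexin, by 2.70 ± 0.52. The calls of Itih3, Mbp and Ctxn2 ended over all 20 arrays, and the other 7 held. The call of Calb1 held at an adjusted p of 0.0497 (limma) and ended with all 9 P8 arrays and no P21. On P8 replicates 5 to 9, Htr2c, Tmem91 and Calb1 averaged 5.36, 4.98 and 5.36, against highest P3 levels of 5.86, 5.23 and 5.35. Mobp, Scn4b, Mog and Cldn11 averaged above every P3 array there. Ctxn2 averaged 3.73 there, below its P3 mean of 4.76.

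The 10 largest falls, by the same rule, were those of Angptl4, Cd24, Rgs16, Grm3, Dcx, Cdk19, Epcam, Pax6, Gpc2 and B3gnt5. Dcx, the microtubule protein doublecortin of migrating and young neurons, had lowest, median and highest levels of 10.24, 10.60 and 10.92 at P3 and 7.62, 8.17, 8.36 and 7.55 at P8, so that it fell by 2.66 ± 0.20 (adjusted p = 0.000239). Cd24, a surface glycoprotein of immature neurons, had lowest, median and highest levels of 9.00, 9.26 and 9.59 at P3 and 7.36, 6.58, 5.04 and 7.12 at P8 and fell by 2.75 ± 0.39 (adjusted p = 0.00224). Grm3, a metabotropic glutamate receptor, had lowest, median and highest levels of 7.49, 7.74 and 9.11 at P3 and 5.68, 5.14, 4.93 and 5.38 at P8 and fell by 2.66 ± 0.32 (adjusted p = 0.00111). The 2 ages did not overlap for any of these 3, and the P8 arrays were most spread for Cd24. Angptl4, a secreted inhibitor of lipoprotein lipase, fell by 2.98 ± 0.71, and Rgs16, which speeds the shut-off of G proteins, fell by 2.68 ± 0.68. Gpc2, a glypican of growing axons, fell by 2.30 ± 0.46, Epcam, an adhesion molecule, fell by 2.36 ± 0.23, and Pax6, a transcription factor of neural progenitors, fell by 2.35 ± 0.49. Cdk19, a kinase of the Mediator complex, fell by 2.47 ± 0.51, and B3gnt5, a glycosphingolipid synthase, fell by 2.29 ± 0.38. Of these 10 falls, that of Pax6 alone ended over all 20 arrays.

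**Figure D1:**
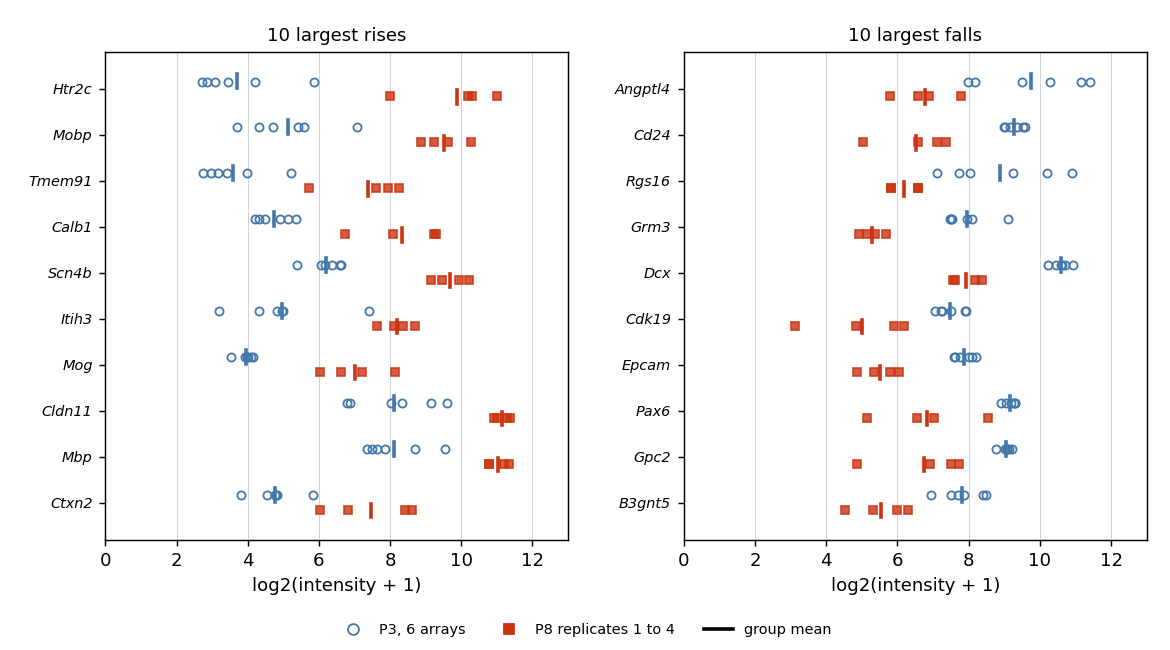
Levels, as log2(intensity + 1), of the 10 largest rises and the 10 largest falls from P3 to P8 on each of 10 arrays; points are single arrays and bars the group means. For each of the 20 genes the 4 P8 points lie beyond all 6 P3 points, from Htr2c, which rose by 6.18, to B3gnt5, which fell by 2.29.

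Rises made up 15 of 25 oligodendrocyte and myelin genes, 47.8% of genes of bushy and fast auditory neurons, 47.6% of genes of the node, paranode and axon initial segment, 32.1% of calcium buffers, pumps and exchangers, 29.7% of synaptic vesicle proteins and 29.2% of voltage-gated potassium channels, against 7.80% of all genes. The shares of falls were 31.2% among hindbrain and neuronal transcription factors, 27.3% among growth cone and immaturity genes, 25.4% among cell cycle genes and 24.4% among ribosomal proteins, against 7.30% of all genes. The lists were drawn up with earlier results of these arrays known, so their counts describe and do not test.

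**Figure D2:**
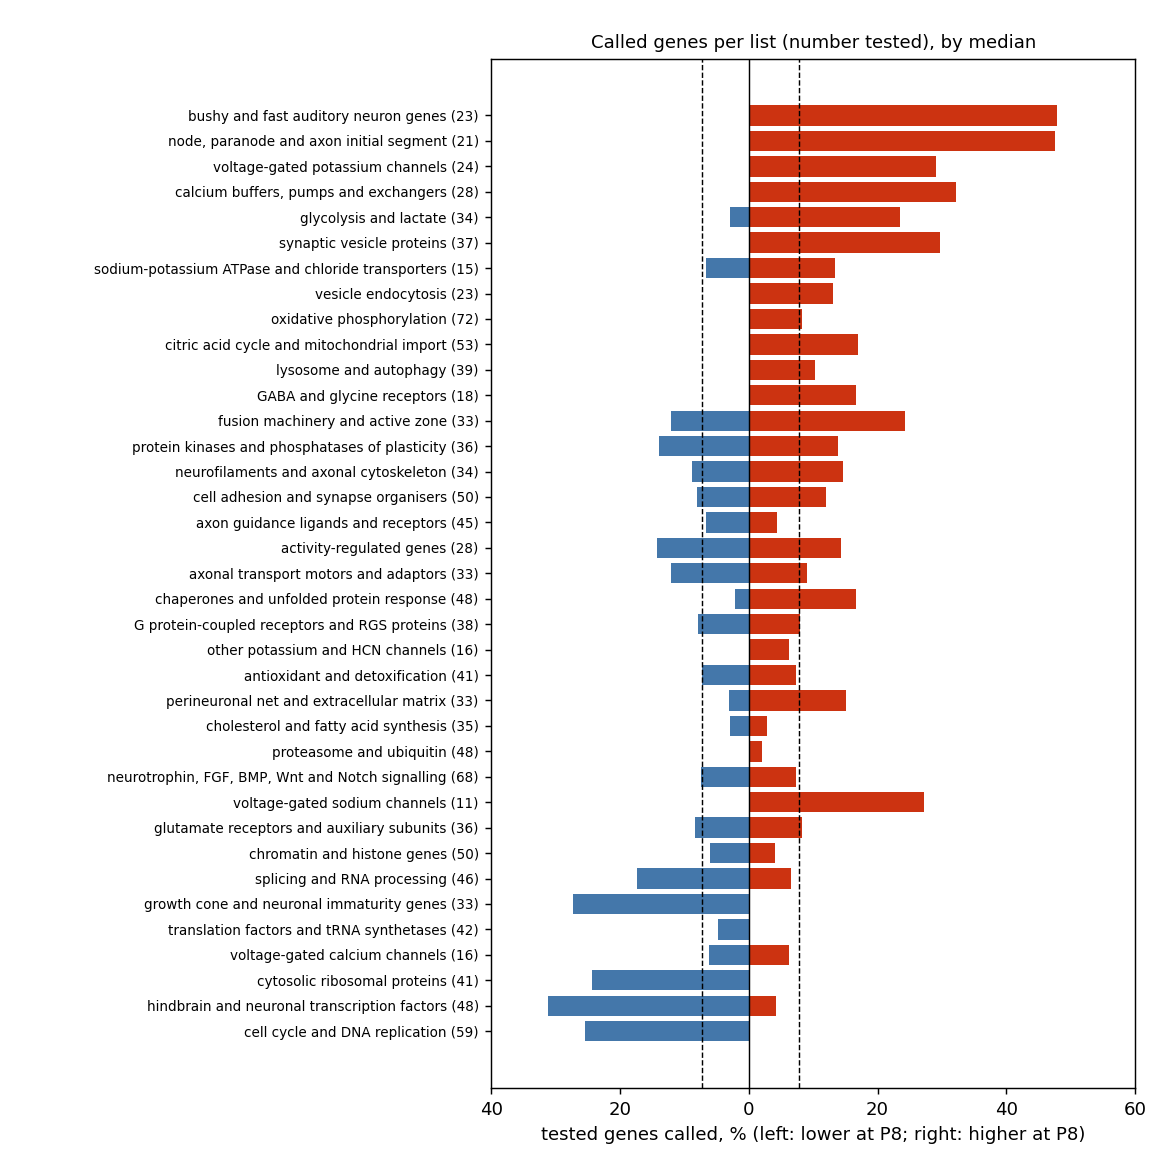
Percentage of the tested genes of each function list that rose (right) or fell (left) from P3 to P8, with the percentage of all genes tested as dashed lines. The bars for bushy and fast auditory neuron genes and for node and paranode genes reach 47.8% and 47.6% to the right, and those for transcription factors reach 31.2% to the left.

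Several channels that shape fast spiking rose. Of 23 tested genes of bushy and fast auditory neurons 11 rose and 0 fell, with a median difference of 1.11. Over all 20 arrays 7 of the 23 rose and 1 fell, and 5 of the 11 rises were among them. Of 24 voltage-gated potassium channel genes 7 rose and 0 fell, with a median of 0.56. Kcna1, the low-threshold Kv1.1 subunit, had lowest, median and highest levels of 5.21, 5.89 and 6.42 at P3 and 7.65, 7.92, 7.47 and 9.04 at P8 and rose by 2.17 ± 0.32 (adjusted p = 0.00317). Kcna2, the Kv1.2 subunit, rose from 8.24 to 9.94, by 1.71 ± 0.32 (adjusted p = 0.0073). Kcnc1, the high-threshold Kv3.1 subunit that repolarises the spike, had lowest, median and highest levels of 7.21, 7.78 and 7.98 at P3 and 9.32, 8.81, 9.13 and 9.84 at P8 and rose by 1.60 ± 0.23 (adjusted p = 0.00271). All 3 subunits were higher on each P8 array than on any P3 array. The calls of Kcna2 and Kcnc1 held over all 20 arrays, and that of Kcna1 ended at 0.52 (adjusted p = 0.602). On P8 replicates 5 to 9, Kcna1 averaged 5.05, below its P3 mean of 5.85. Of the related Kv3 genes, Kcnc4 rose by 1.11 ± 0.24 and kept its call, whereas Kcnc2 rose by 2.15 ± 0.65 (adjusted p = 0.0492) with overlapping groups, and its call ended over all 20 arrays. Kcnc2 and Kcnc4, like others pointed out as such, were chosen after their values were seen. Kcnt1, a sodium-activated potassium channel, was the only one of 16 other potassium and HCN channel genes called (1.26 ± 0.35, adjusted p = 0.0354), and its call held over all 20 arrays.

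Among sodium channels the called genes were 1 pore and 2 auxiliary subunits. Of 11 tested genes 3 rose and 0 fell, and their median of -0.03 was near that of all genes. Besides Scn4b these were Scn1a, the Nav1.1 pore of fast-spiking neurons, which rose by 1.71 ± 0.28 (adjusted p = 0.00472), and the β2 subunit Scn2b, which rose by 1.28 ± 0.30 (adjusted p = 0.0195). Scn2a and Scn3a, pore subunits of immature axons and neurons, differed by -0.24 and -0.76 and did not pass (adjusted p = 0.578 and 0.193), though Scn3a was called lower over all 20 arrays (-1.68). The levels of Scn3a were lowest, median and highest levels of 7.70, 8.30 and 9.02 at P3 and 8.05, 8.55, 6.65 and 7.12 at P8, and the ages overlapped. Scn8a lay below the filter. The call of Scn4b held over all 20 arrays, and those of Scn1a and Scn2b ended.

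The P/Q-type calcium channel pore Cacna1a, which carries release at the mature calyx, had lowest, median and highest levels of 4.14, 4.61 and 5.10 at P3 and 5.92, 6.37, 5.01 and 5.78 at P8 and rose by 1.17 ± 0.27 (adjusted p = 0.0187), though the groups overlapped and the call ended over all 20 arrays (0.04). Cacna1a averaged 3.74 on P8 replicates 5 to 9, below its P3 mean of 4.60. Cacna1b, the N-type pore, differed by -0.26 and did not pass (adjusted p = 0.251). Cacnb3, an auxiliary β subunit, fell by 0.52 ± 0.15 (adjusted p = 0.0407). These 2 were the called genes among 16 calcium channel genes, and the call of Cacnb3 held over all 20 arrays.

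Of 28 tested genes of calcium buffering and transport 9 rose and 0 fell, with a median of 0.39. Calb2, the buffer calretinin, had lowest, median and highest levels of 7.92, 8.11 and 8.47 at P3 and 8.84, 9.48, 10.24 and 10.52 at P8 and rose by 1.59 ± 0.30 (adjusted p = 0.00754). Slc24a2, a potassium-dependent sodium-calcium exchanger that extrudes calcium, rose by 1.66 ± 0.18 (adjusted p = 0.000974). For both genes every P8 array exceeded every P3 array. Pvalb, the buffer parvalbumin, had lowest, median and highest levels of 1.68, 3.85 and 5.32 at P3 and 8.14, 4.67, 3.97 and 8.98 at P8, a difference of 2.83 ± 1.07 that did not pass (adjusted p = 0.099). Its P8 replicates 2 and 3 lay below the highest P3 array and replicates 1 and 4 above it. Over all 20 arrays 6 of the 28 genes rose, 3 of the 9 among them. The call of Calb1 held, while those of Calb2 and Slc24a2 ended. Calb2 averaged 7.29 on P8 replicates 5 to 9, below its P3 mean of 8.18.

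Ion transporters that set inhibition and the sodium gradient were called in few cases, 2 higher and 1 lower of 15. Slc12a5, the chloride extruder KCC2 that makes GABA and glycine hyperpolarising, had lowest, median and highest levels of 9.67, 9.999 and 10.19 at P3 and 10.79, 10.88, 11.08 and 10.56 at P8 and rose by 0.87 ± 0.16 (adjusted p = 0.00654). The chloride importer Slc12a2 (NKCC1) differed by 0.35 and did not pass (adjusted p = 0.32), but was called higher over all 20 arrays (0.85). Fxyd7, a regulator of the sodium-potassium ATPase, rose by 1.64 ± 0.27 (adjusted p = 0.00469). Both rises ended over all 20 arrays. Slc4a4, a sodium bicarbonate cotransporter also counted as an astrocyte marker, fell by 1.31 ± 0.28 (adjusted p = 0.0127), a call that held.

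Synaptic vesicle genes rose in 11 of 37 cases and fell in 0, with a median of 0.34. Syngr3, synaptogyrin 3 of the vesicle membrane, had lowest, median and highest levels of 9.35, 9.68 and 9.94 at P3 and 10.57, 10.77, 11.10 and 10.47 at P8 and rose by 1.08 ± 0.18 (adjusted p = 0.00492). Syn2, synapsin 2, which tethers vesicles, rose by 1.21 ± 0.18, and Atp6v1b2, a subunit of the proton pump that fills them, rose by 0.86 ± 0.14. Smaller rises were those of Syp, synaptophysin (0.67 ± 0.15), and Rab3a, the vesicle GTPase (0.53 ± 0.15), both chosen after their values were seen. Slc17a6, the glutamate transporter VGLUT2 of these neurons, had lowest, median and highest levels of 11.03, 11.13 and 11.21 at P3 and 11.41, 11.44, 11.72 and 11.30 at P8, a difference of 0.34 that did not pass (adjusted p = 0.11) although the groups did not overlap. Slc17a7, VGLUT1, differed by -0.65 ± 0.59 (adjusted p = 0.49), with overlapping groups. The calcium sensors Syt1 and Syt2 differed by 0.12 and 1.11, and neither passed (adjusted p = 0.764 and 0.196), though both were called higher over all 20 arrays (0.81 and 1.54). Of the 11 rises 1 was called over all 20 arrays, where the list's median was -0.14. The calls of Syngr3, Syn2, Atp6v1b2, Syp and Rab3a ended there, and Syngr3 stood at -0.68.

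Among 33 genes of vesicle fusion and the active zone 8 rose and 4 fell, with a median of 0.19. Vamp1, the vesicle SNARE of fast synapses, had lowest, median and highest levels of 8.62, 9.09 and 9.45 at P3 and 11.38, 11.34, 11.28 and 11.52 at P8 and rose by 2.30 ± 0.17 (adjusted p = 0.000239), without overlap. Vamp2, its close relative, differed by 0.22 and did not pass (adjusted p = 0.542). Nsf, the ATPase that takes SNARE complexes apart, rose by 1.35 ± 0.25 (adjusted p = 0.00748), with 1 of its 3 probe sets called. The scaffold Lin7b rose by 1.42 ± 0.20 (adjusted p = 0.00271). Snap25, the membrane SNARE, and the active zone scaffolds Bsn and Pclo differed by 0.33, 0.05 and 0.31, and none passed (adjusted p = 0.107, 0.885 and 0.369). Snap25 (0.85) and Pclo (1.03) were called higher over all 20 arrays, and 1 of the 2 Pclo probe sets was called lower over the 10. Stxbp5, a SNARE-binding inhibitor of release, rose by 1.28 ± 0.37 and the scaffold kinase Cask fell by 1.31 ± 0.39, both with overlapping groups and both chosen after their values were seen. All 4 falls and 1 of the 8 rises were called over all 20 arrays. The calls of Vamp1 (0.40), Nsf (-1.23), Lin7b and Stxbp5 were among those that ended. Vamp1 averaged 7.97 on P8 replicates 5 to 9, below its P3 mean of 9.08. In endocytosis 3 of 23 genes rose and 0 fell: Dnm1, the dynamin that cuts vesicles free, by 1.02 ± 0.18, the adaptor subunit Ap2m1 by 0.73 ± 0.17, and the scaffold Itsn1 by 0.64 ± 0.14. None of these 3 kept its call over all 20 arrays.

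Glutamate receptors were called about as often as all genes, 3 higher and 3 lower of 36. The AMPA receptor subunits Gria1, Gria2, Gria3 and Gria4 differed by 0.71, -0.07, 0.07 and -0.16, and none passed (adjusted p = 0.111, 0.892, 0.943 and 0.568). Grin2c, an NMDA receptor subunit, had lowest, median and highest levels of 5.17, 5.57 and 5.94 at P3 and 6.49, 7.59, 6.48 and 6.94 at P8 and rose by 1.34 ± 0.24 (adjusted p = 0.00631), while Cnih2, an AMPA receptor auxiliary protein, fell by 0.89 ± 0.18 (adjusted p = 0.0103). Grin2c did not overlap between ages and kept its call over all 20 arrays, and that of Cnih2 ended. Of 18 GABA and glycine receptor genes 3 rose and 0 fell. Glrb, the subunit that anchors glycine receptors, had lowest, median and highest levels of 7.62, 8.22 and 8.86 at P3 and 9.66, 10.30, 10.54 and 9.49 at P8 and rose by 1.75 ± 0.31 (adjusted p = 0.00641), without overlap, but stood at -0.15 over all 20 arrays. The adult α1 subunit Glra1 differed by 1.71 ± 0.62 and the fetal α2 subunit Glra2 by 0.45 ± 0.39, and neither passed (adjusted p = 0.0868 and 0.46). Gabra6, a GABA receptor subunit best known from cerebellar granule cells, was 1 of the 3 and exceeded the filter at P8 alone, and Gabbr1, a GABA B receptor subunit, rose by 0.59 ± 0.17. Gabra6 and Gabbr1 kept their calls over all 20 arrays.

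G protein signalling genes were also called near the share of all genes, 3 higher and 3 lower of 38. Besides Htr2c, Gng13, a G protein γ subunit, rose by 2.02 ± 0.33 (adjusted p = 0.00438), and Gnao1, the α subunit Go of neurons, fell by 1.91 ± 0.27 (adjusted p = 0.0022). The levels of Gnao1 were lowest, median and highest levels of 8.04, 8.55 and 8.96 at P3 and 7.08, 7.04, 6.39 and 6.00 at P8, without overlap. Of 36 kinase and phosphatase genes 5 rose and 5 fell. The regulatory subunits of protein kinase A, Prkar2b and Prkar2a, fell by 0.87 ± 0.17 and 0.75 ± 0.17, and Pde2a, which degrades cyclic nucleotides, rose by 1.31 ± 0.26. Gnao1, both kinase subunits and Pde2a kept their calls over all 20 arrays, and Gng13 did not.

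Genes of the node of Ranvier, the paranode and the axon initial segment rose in 10 of 21 cases and fell in 0, with a median of 0.66. Cntnap1, the paranodal protein Caspr, had lowest, median and highest levels of 2.87, 3.20 and 4.45 at P3 and 6.66, 6.42, 7.05 and 7.26 at P8 and rose by 3.41 ± 0.31 (adjusted p = 0.000434). Lgi3, a secreted ligand of ADAM receptors on axons, had lowest, median and highest levels of 4.49, 5.12 and 5.36 at P3 and 7.16, 7.90, 7.25 and 7.16 at P8 and rose by 2.38 ± 0.23 (adjusted p = 0.00056), and all 3 of its probe sets were called higher. Both genes were separated between the ages. Nfasc, neurofascin, rose by 0.95 ± 0.17 (adjusted p = 0.00652), Sptbn4, the βIV spectrin under nodes, by 1.11 ± 0.20, and Adam23, an LGI receptor, by 1.33 ± 0.30, the last 2 chosen after their values were seen. Kcna1 and Kcna2, which lie beside the paranode, belong to the same list. Called again over all 20 arrays were 4 of the 10 rises, Cntnap1, Lgi3 and Kcna2 among them, and the list's median was -0.11. Cntnap1 averaged 4.17 on P8 replicates 5 to 9, inside its P3 range, and its call ended with all 9 P8 arrays and no P21. Lgi3 and Kcna2 averaged above every P3 array on replicates 5 to 9.

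In the extracellular matrix 5 of 33 genes rose and 1 fell. Hapln4, the link protein Bral2 of perineuronal nets, had lowest, median and highest levels of 5.44, 5.80 and 6.61 at P3 and 8.88, 6.94, 7.26 and 9.88 at P8 and rose by 2.34 ± 0.51 (adjusted p = 0.0145), chosen after its values were seen. Acan, the proteoglycan aggrecan of the same nets, had lowest, median and highest levels of 4.55, 4.96 and 5.09 at P3 and 6.29, 5.77, 5.72 and 6.59 at P8 and rose by 1.19 ± 0.20 (adjusted p = 0.00492). Timp4, a metalloprotease inhibitor, rose by 1.05 ± 0.19 (adjusted p = 0.00709). None of these 3 overlapped between ages, and all 3 kept their calls over all 20 arrays. Vcan, versican of the immature matrix and of oligodendrocyte precursors, fell by 1.29 ± 0.28 (adjusted p = 0.0151). It was chosen after its values were seen, and its call ended over all 20 arrays.

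Of 34 genes of neurofilaments and the axonal cytoskeleton 5 rose and 3 fell. Nefh, the heavy neurofilament subunit of large axons, had lowest, median and highest levels of 9.77, 10.09 and 10.27 at P3 and 11.06, 10.61, 10.76 and 11.28 at P8 and rose by 0.88 ± 0.18 (adjusted p = 0.0124), without overlap. The light and medium subunits Nefl and Nefm differed by 0.36 and 0.07 and did not pass (adjusted p = 0.0921 and 0.776). Tppp, a microtubule-stabilising protein abundant in oligodendrocytes, rose by 2.03 ± 0.24, and the tubulins Tuba8 and Tuba4a rose by 1.56 ± 0.30 and 1.08 ± 0.32. Vim, the intermediate filament vimentin of immature cells, fell by 1.18 ± 0.22, and Add2, β-adducin of the membrane skeleton, lay at means of 4.89 and 2.54. Tuba4a and Add2 were chosen after their values were seen. All 3 falls in the list and 0 of its 5 rises kept their calls over all 20 arrays. The falls include that of Add2, which exceeded the filter at P3 alone. Among 33 transport genes 3 rose and 4 fell, with Hap1, a motor adaptor, up by 1.31 ± 0.29, Kif3a, a kinesin-2 motor, changed by -1.53, and Nde1, a dynein regulator that also acts in dividing progenitors, at means of 4.41 and 1.93. Nde1, which exceeded the filter at P3 alone, and Hap1 kept their calls over all 20 arrays and Kif3a did not.

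**Figure D3:**
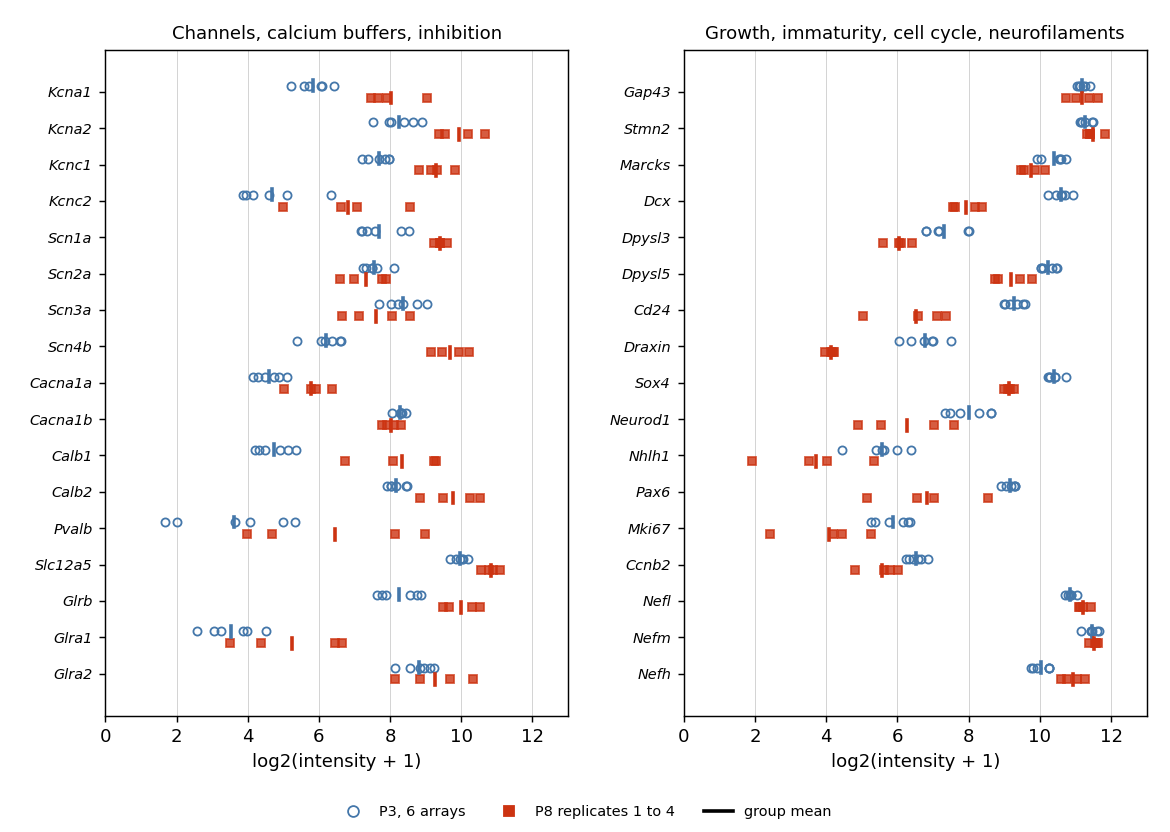
Levels, as log2(intensity + 1), of channel, calcium buffer, inhibition, growth, immaturity, cell cycle and neurofilament genes at P3 (6 arrays) and P8 (4 arrays). Points are arrays and bars group means. Kcna1, Scn4b, Kcnc1 and Dcx are separated between the ages, with differences of 2.17, 3.48, 1.60 and -2.66, whereas Gap43 differs by -0.01.

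Growth cone and immaturity genes fell in 9 of 33 cases and rose in 0, with a median of -0.22. Draxin, a secreted axon guidance protein, had lowest, median and highest levels of 6.04, 6.86 and 7.51 at P3 and 4.22, 4.13, 3.95 and 4.19 at P8 and fell by 2.65 ± 0.26 (adjusted p = 0.000549). Sox4, a transcription factor of newborn neurons, fell by 1.26 ± 0.14 (adjusted p = 0.00109), with 4 of its 5 probe sets called lower. Neither gene overlapped between ages. The collapsin response mediators Dpysl5 and Dpysl3 fell by 1.04 ± 0.22 and 1.28 ± 0.29, and Igf2bp3, an mRNA-binding protein of fetal cells, fell by 1.53 ± 0.31, all 3 chosen after their values were seen. Gap43, the growth-associated protein of axon terminals, had lowest, median and highest levels of 11.05, 11.17 and 11.40 at P3 and 11.00, 11.38, 11.64 and 10.73 at P8, a difference of -0.01 ± 0.18 (adjusted p = 0.987). The ages overlapped for Gap43, as they did for Stmn2, a microtubule regulator of growing axons (0.22, adjusted p = 0.348), which was chosen after its values were seen. Marcks, a growth cone protein likewise chosen after its values were seen, differed by -0.63 and did not pass (adjusted p = 0.0687), though 2 of its 4 probe sets were called lower and it was called lower over all 20 arrays (-0.97). All 9 falls were also called over all 20 arrays. Draxin, however, averaged 6.25 on P8 replicates 5 to 9, inside its P3 range, and its call ended with all 9 P8 arrays and no P21. Dcx, Sox4, Dpysl5, Dpysl3 and Igf2bp3 averaged below every P3 array on replicates 5 to 9.

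Axon guidance genes were called at or below the share of all genes, 2 higher and 3 lower of 45. Sema4d, a semaphorin also made by oligodendrocytes, rose by 1.97 ± 0.29 (adjusted p = 0.00295), while Unc5c, a netrin receptor, and Plxna3, a semaphorin receptor, changed by -1.15 and -0.67 (adjusted p = 0.00938 and 0.0128). Of 50 adhesion genes 6 rose and 4 fell. Thy1, a surface protein of mature neurons, rose by 1.13 ± 0.19 (adjusted p = 0.00497), Nrxn2, a presynaptic neurexin, by 0.63 ± 0.15, and Pcdh20, a protocadherin chosen after its values were seen, by 2.03 ± 0.56. The axonal adhesion molecules L1cam and Chl1 fell by 0.58 ± 0.17 and, in the case of Chl1, fell by 1.02 ± 0.27, both also chosen after their values were seen. L1cam, Chl1 and Unc5c kept their calls over all 20 arrays, whereas Sema4d, Plxna3, Thy1, Nrxn2 and Pcdh20 did not.

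Transcription factors of hindbrain and neuronal development fell in 15 of 48 cases and rose in 2, with a median of -0.42. Neurod2, a proneural factor, had lowest, median and highest levels of 6.77, 7.30 and 7.56 at P3 and 6.36, 5.41, 5.62 and 6.03 at P8 and fell by 1.40 ± 0.23 (adjusted p = 0.00472), without overlap. Its relatives Neurod1 and Neurod6 fell by 1.75 ± 0.51 and, for Neurod6, fell by 2.00 ± 0.57. Gbx2, which patterns the hindbrain, fell by 2.91 ± 0.74, Eomes, known from unipolar brush cells and cortical progenitors, fell by 2.23 ± 0.57, Nhlh1 fell by 1.87 ± 0.56, and the nuclear factors Nfia and Nfib fell by 1.08 ± 0.30 and, for Nfib, fell by 1.39 ± 0.34. These 7 were chosen after their values were seen. Nfix differed by -1.64 and did not pass (adjusted p = 0.118), and was likewise chosen. The rises were those of Klf9, a thyroid hormone-responsive factor (1.498 ± 0.23, adjusted p = 0.00334), and Nr4a1 (0.59 ± 0.14, adjusted p = 0.0227), the latter chosen after its values were seen. Klf9 kept its call over all 20 arrays and Nr4a1 did not. Over all 20 arrays 5 of the 15 falls held, among them Gbx2, Eomes, Neurod6 and Sox4, and those of Neurod1, Neurod2, Nhlh1, Pax6, Nfia and Nfib ended.

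Some of these factors also mark cerebellar granule cells and their precursors, a list in which 5 of 11 genes fell (Neurod1, Neurod2, Pax6, Nhlh1 and Etv1) and 2 rose (Gabra6 and Chn2). Etv1 and Chn2 are named after their values were seen, and of these 7 calls that of Gabra6 alone held over all 20 arrays. Gabra6 exceeded the filter at P8 alone, so its call supports nothing. The summed intensity of that list was 3190.8 to 4547.2 at P3 and 1804.8 to 3263.0 at P8. Granule cells also lie in the cochlear nucleus, and their part in the falls of these factors was not tested.

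Cell cycle and DNA replication genes fell in 15 of 59 cases and rose in 0, with a median of -0.55 and 50 of 59 differences below 0. Mcm7, a subunit of the replication helicase, had lowest, median and highest levels of 7.30, 7.66 and 8.04 at P3 and 6.74, 6.28, 6.61 and 6.38 at P8 and fell by 1.16 ± 0.18 (adjusted p = 0.00337). Kif23, a kinesin of the dividing cell's midzone, had lowest, median and highest levels of 5.30, 5.40 and 5.80 at P3 and 3.99, 4.04, 3.28 and 4.46 at P8 and fell by 1.52 ± 0.21 (adjusted p = 0.00238). Neither overlapped between ages. Aurkb, a mitotic kinase, fell by 0.90 ± 0.17 (adjusted p = 0.00762). Cdkn1b, the cell cycle inhibitor p27 and thus of opposite function, fell by 1.54 ± 0.30. It was chosen after its values were seen, as were Ttk, a spindle checkpoint kinase at means of 4.65 and 2.57, Mki67, the proliferation marker Ki-67, which fell by 1.79 ± 0.47, Ccnb2, a mitotic cyclin, which fell by 0.96 ± 0.23, Kif20a, a mitotic kinesin, which fell by 0.78 ± 0.22, Mcm5, another helicase subunit, which fell by 0.88 ± 0.24, and Pcna, the sliding clamp of DNA polymerase, which fell by 0.73 ± 0.16. Over all 20 arrays 7 of the 15 falls held, Mcm7, Kif23, Cdkn1b and Pcna among them, whereas those of Aurkb, Ttk, Mki67, Ccnb2, Kif20a and Mcm5 ended and Mki67 stood at -0.03. Bushy cells are postmitotic, and the summed intensity of markers of oligodendrocyte precursors, which divide, was 2324.2 to 2850.9 at P3 and 1791.8 to 2158.8 at P8, without overlap. Much of the precursor list's sum came from Olig1, with mean levels of 10.3 at P3 and 9.2 at P8, and the separation rests on this gene. By count that list had 2 rises and 3 falls of 12 and 7 means above P3, with a median of 0.18, and over all 20 arrays 5 rises and 1 fall, with a median of 0.72. The part of dividing cells in these falls was not tested.

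Promoters of cell cycle genes are known for CCAAT boxes bound by the factor NF-Y and for the cell cycle homology region, TTTGAA. In the 250 bases before the RefSeq start (rat assembly GRCr8, either strand), CCAAT stood in 12 of 13 windows of the cell cycle genes that fell (92.3%) and in 35 of 51 windows of all tested cell cycle genes (68.6%). It stood in 35.3% of 9632 windows of tested genes, in 34.3% of all 27457 windows and in 35.4% of 695 windows of all genes that fell. TTTGAA stood in 4 of the 13 windows (30.8%), in 25.5% of the 51 and in 10.1% of the 9632. A match is a description of the letters, and binding was not measured. Matches to the 2 motifs can share at most 1 letter, at their ends. Stretches of 4 genes that fell are shown because each holds the box, up to 3 times, with every match to either motif, on either strand, in capitals. They lie outside the annotated gene on the plus strand of Mcm5 at chr19:13488666-13488812 and Kif20a at chr18:26504192-26504421, and on the minus strand of Ccnb2 at chr8:79981718-79981882 and Pcna at chr3:139955821-139955998. A second TTTGAA of Ccnb2, 43 to 38 bases before the start, lies inside the annotated gene and is not printed.
Ccnb2: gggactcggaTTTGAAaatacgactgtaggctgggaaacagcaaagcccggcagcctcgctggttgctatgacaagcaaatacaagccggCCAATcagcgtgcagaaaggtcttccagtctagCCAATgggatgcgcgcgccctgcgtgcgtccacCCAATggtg
Mcm5: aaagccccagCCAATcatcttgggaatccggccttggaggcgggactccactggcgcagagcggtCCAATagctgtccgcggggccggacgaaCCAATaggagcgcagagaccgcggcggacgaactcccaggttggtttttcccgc
Kif20a: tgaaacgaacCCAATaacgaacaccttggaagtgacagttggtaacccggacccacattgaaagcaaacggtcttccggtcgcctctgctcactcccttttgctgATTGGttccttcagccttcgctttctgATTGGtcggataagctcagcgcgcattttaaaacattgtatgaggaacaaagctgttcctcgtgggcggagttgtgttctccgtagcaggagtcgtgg
Pcna: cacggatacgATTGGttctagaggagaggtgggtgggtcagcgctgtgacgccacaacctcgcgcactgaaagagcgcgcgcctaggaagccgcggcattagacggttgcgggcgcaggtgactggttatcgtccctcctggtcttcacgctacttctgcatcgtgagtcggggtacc

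Activity-regulated genes went both ways, 4 higher and 4 lower of 28. Fos, an immediate early gene, had lowest, median and highest levels of 8.44, 9.75 and 10.19 at P3 and 8.22, 7.04, 6.18 and 7.96 at P8 and fell by 2.12 ± 0.46 (adjusted p = 0.0139), without overlap. Atf3, a factor induced by stress and axon injury, lay at means of 5.23 and 1.51, and Ier2, another immediate early gene, fell by 1.09 ± 0.29, both chosen after their values were seen. Nptx1, a secreted pentraxin that clusters AMPA receptors, had lowest, median and highest levels of 6.41, 6.63 and 7.24 at P3 and 8.27, 8.05, 9.26 and 8.58 at P8 and rose by 1.85 ± 0.25 (adjusted p = 0.00204), and Inhba, the activin A subunit, rose by 1.92 ± 0.44 (adjusted p = 0.0176), with overlap in the latter. These 5 calls held over all 20 arrays, but Atf3 exceeded the filter at P3 alone. The tracer injection 24 hours before death was common to both ages.

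Growth factor signalling was called near the share of all genes, 5 higher and 5 lower of 68. The bone morphogenetic protein Bmp4, which oligodendrocyte precursors also express, had lowest, median and highest levels of 3.73, 4.22 and 5.11 at P3 and 6.30, 6.04, 5.27 and 6.50 at P8 and rose by 1.76 ± 0.29 (adjusted p = 0.00483). Its secreted antagonist Grem1 had lowest, median and highest levels of 3.15, 3.34 and 3.50 at P3 and 4.49, 6.37, 5.42 and 4.23 at P8, above the filter at P8 alone, and the antagonist Nog rose by 1.33 ± 0.27 (adjusted p = 0.0116). Hey1, a target of Notch signalling, rose by 1.15 ± 0.23 (adjusted p = 0.0103). Bmp6 fell by 1.15 ± 0.28 and Ret, the receptor kinase for GDNF family ligands, fell by 1.12 ± 0.27, and these 2 and Nog were chosen after their values were seen. Bmp4 and Grem1 kept their calls over all 20 arrays, and the other 4 did not.

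Of 41 ribosomal protein genes 10 fell and 0 rose, the median was -0.31, and 37 differences lay below 0. Rpl24 had lowest, median and highest levels of 8.62, 9.05 and 9.41 at P3 and 8.09, 8.24, 8.28 and 7.96 at P8 and fell by 0.91 ± 0.17 (adjusted p = 0.00762), without overlap. Rps15a fell by 0.89 ± 0.20, Rpl14 fell by 0.96 ± 0.22, and Rplp0, chosen after its values were seen, fell by 0.85 ± 0.22. All 4 and 8 of the 10 falls in all were also called over all 20 arrays, where the list's median was -0.83. Over all 20 arrays 19 of 42 translation genes and 15 of 48 proteasome genes fell, with medians of -0.93 and -0.72 and 0 rises. Splicing genes had 19 falls and 1 rise of 46 there, with a median of -0.91. The lower ribosomal median over all 20 arrays was thus not particular to that list. Ribosomal proteins have many processed copies in the genome, and no label says how the probe sets treat these. Of 42 translation factors and tRNA synthetases 2 fell, Rars1 by 0.63 and Eif4b by 0.61, and both calls held over all 20 arrays.

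Splicing and RNA-processing genes fell in 8 of 46 cases and rose in 3, with a median of -0.20. Hnrnpr, a binding protein of nascent RNA, had lowest, median and highest levels of 9.31, 9.67 and 9.88 at P3 and 8.51, 8.80, 7.73 and 8.26 at P8 and fell by 1.32 ± 0.21 (adjusted p = 0.00395). Hnrnpa3 fell by 0.88 ± 0.15 and Srrm2, a scaffold of the spliceosome, fell by 1.07 ± 0.21. All 3 were separated between ages and called over all 20 arrays. Of 50 chromatin genes 2 rose and 3 fell: Cbx6, a Polycomb protein, rose by 1.20 ± 0.17, Hdac11, a histone deacetylase, rose by 1.29 ± 0.25, and Smarce1, a subunit of the BAF remodeller, fell by 0.83 ± 0.15. The fall held over all 20 arrays and the 2 rises ended.

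Some genes of energy metabolism rose, mostly by less than 2-fold. Of 72 oxidative phosphorylation genes 6 rose and 0 fell, a share near that of all genes, and 65 of the 72 P8 means lay above P3, against 5817 of the 11615 of all genes, with a median of 0.22. Ndufs4, a subunit of complex I, had lowest, median and highest levels of 7.72, 8.11 and 8.47 at P3 and 9.48, 9.09, 9.41 and 10.01 at P8 and rose by 1.40 ± 0.23 (adjusted p = 0.00423). Ndufs8, of the same complex, rose by 0.90 ± 0.19, and Cox7a1, a subunit of cytochrome oxidase, rose by 1.21 ± 0.31. Of 53 citric acid cycle and mitochondrial import genes 9 rose and 0 fell, with a median of 0.22, among them Dlst of the ketoglutarate dehydrogenase complex (0.88 ± 0.15), the import chaperone Timm10 (0.86 ± 0.15) and the glutamate carrier Slc25a22 (0.93 ± 0.19). Glycolysis and lactate genes rose in 8 of 34 cases and fell in 1, with a median of 0.37. Pfkp, a phosphofructokinase, had lowest, median and highest levels of 8.75, 8.92 and 9.40 at P3 and 10.31, 10.44, 10.27 and 10.49 at P8 and rose by 1.40 ± 0.15 (adjusted p = 0.00091). Ckmt1, mitochondrial creatine kinase, rose by 1.35 ± 0.19 (adjusted p = 0.0023), Pgam1 by 0.70 ± 0.13 and Pfkm by 0.79 ± 0.20, while Ldha, the lactate dehydrogenase A subunit, fell by 0.67 ± 0.19 (adjusted p = 0.0403). Pfkm and Ldha were chosen after their values were seen. The sign of these medians depended on P8 replicates 5 to 9: with them counted as P8, the medians of the 3 lists were -0.47, -0.64 and -0.60, and of the genes named here Ndufs4, Cox7a1, Pfkp and Ldha kept their calls.

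Among 48 chaperone genes 8 rose and 1 fell, with a median of 0.06. Dnajb9, a chaperone partner of the endoplasmic reticulum, rose by 0.70 ± 0.13 (adjusted p = 0.00762), Hspa4l by 0.83 ± 0.18 and Hspa5, the chaperone BiP, by 0.65 ± 0.16, the last chosen after its values were seen. Cct8, of the cytosolic chaperonin, fell by 0.66 ± 0.13 (adjusted p = 0.00894), and over all 20 arrays this fall and 1 of the 8 rises held. The proteasome and ubiquitin list had 1 rise of 48, that of Fbxo2, a ubiquitin ligase adaptor (1.39 ± 0.35). Lysosomal genes rose in 4 of 39 cases and fell in 0, with Mcoln1, a lysosomal cation channel (0.59 ± 0.14, adjusted p = 0.0207), and the hydrolases Ctsa (0.87 ± 0.25) and Gaa (0.57 ± 0.16). Of 41 antioxidant genes 3 rose and 3 fell, and the peroxide-reducing enzymes Prdx5 and Gpx1 changed by 0.93 and -0.90, and the mitochondrial glutaredoxin Glrx2 by 0.93. Cholesterol and fatty acid synthesis had 1 rise, Pmvk (0.62 ± 0.18), and 1 fall, Dhcr7 (-0.69 ± 0.19), of 35 genes. Of these genes Cct8, Mcoln1, Gpx1, Glrx2 and Dhcr7 kept their calls over all 20 arrays.

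Markers of other cell types were read to see what the cut cells carried with them. Oligodendrocyte and myelin genes rose in 15 of 25 cases and fell in 1, with a median of 1.32. Mag, a myelin adhesion protein, had lowest, median and highest levels of 5.69, 5.89 and 6.43 at P3 and 8.11, 8.59, 8.26 and 7.60 at P8 and rose by 2.16 ± 0.22 (adjusted p = 0.000634). Gal3st1, which makes the myelin lipid sulfatide, rose by 2.16 ± 0.22 (adjusted p = 0.000634). Enpp6, a marker of newly formed oligodendrocytes, rose by 3.52 ± 0.81 and Mal, a myelin proteolipid, by 2.03 ± 0.38, while Ermn, a myelin cytoskeletal protein, exceeded the filter at P8 alone, all chosen after their values were seen. The summed intensity of the 29 measured markers was 3410.5 to 5547.1 at P3 and 8977.4 to 12414.4 at P8, without overlap, and Opalin, Gjb1, Olig2 and Nkx6-2 lay below the filter. Of the 15 rises 12 were also called over all 20 arrays.

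The part of this rise in those of Tppp, Sema4d, Nfasc and the paranodal list was not tested. In pooled cells, fewer cells of a type and less RNA per cell cannot be told apart, and the same holds for more of either. Schwann cell markers, 7 measured, summed to 573.7 to 1300.9 at P3 and 2121.9 to 3040.8 at P8, and of the 6 tested Mbp alone was called. The P8 mean lay below P3 for 4 of the 6, and their median difference was -0.20. Olig1, a factor of the oligodendrocyte lineage, and Cspg4, the precursor proteoglycan NG2, changed by -1.11 and -0.91 (adjusted p = 0.00312 and 0.00679), 2 of the 3 falls in the precursor list beside its 2 rises. The call of Olig1 held over all 20 arrays.

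Astrocyte markers were called in both directions, 2 higher and 3 lower of 17, and summed to 9884.6 to 16931.6 at P3 and 8500.6 to 13766.4 at P8. Slc1a3, the glutamate transporter GLAST, had lowest, median and highest levels of 10.28, 10.73 and 11.16 at P3 and 9.41, 9.76, 9.49 and 9.85 at P8 and fell by 1.12 ± 0.19 (adjusted p = 0.00517), while Gjb6, the gap junction protein connexin 30, rose by 2.52 ± 0.53 (adjusted p = 0.0128). Gfap differed by -0.94 ± 0.62 and did not pass (adjusted p = 0.322). Microglia and macrophage markers fell in 2 of 15 cases, Ptprc (CD45), which exceeded the filter at P3 alone, and Laptm5 by 0.94, and summed to 594.4 to 1101.3 and 419.3 to 785.7. A second probe set of Laptm5 was called higher. Among endothelial markers Tek, the angiopoietin receptor, fell by 2.03 ± 0.44 and Abcb1a, an efflux pump of the blood-brain barrier, rose by 2.26 ± 0.64, 1 of each of 15. Pericyte and fibroblast markers had 2 rises, Lum, the matrix proteoglycan lumican (2.50 ± 0.48), and Col1a1, named after its values were seen, and 2 falls, Abcc9, a channel subunit of pericytes (-1.47), and Cspg4, of 14. Choroid plexus and ependyma markers had 1 rise of 10, Dynlrb2, a dynein light chain (1.02 ± 0.16). Slc1a3, Gjb6, Abcb1a, Lum and Dynlrb2 kept their calls over all 20 arrays, while those of Ptprc, Laptm5, Tek, Cspg4 and Abcc9 ended.

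Markers of other neurons set limits on the label. Slc17a6 stood at a mean of 11.13 at P3 and 11.47 at P8, but Atoh7, a defining factor of bushy cells, was not analysed here. Gad1, which makes GABA, stood at 9.42 and 8.93 (-0.49, adjusted p = 0.195), and the inhibitory vesicle transporter Slc32a1, chosen after its values were seen, at 7.33 and 7.15 (-0.17, adjusted p = 0.762), whereas Gad2 and Slc6a5 lay below the filter. Of 9 tested inhibitory markers 1 fell, the factor Pax2 (-0.76, adjusted p = 0.0431, a call that ended over all 20 arrays), and of 6 markers of other cochlear nucleus and brainstem neurons 0 were called.

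**Figure D4:**
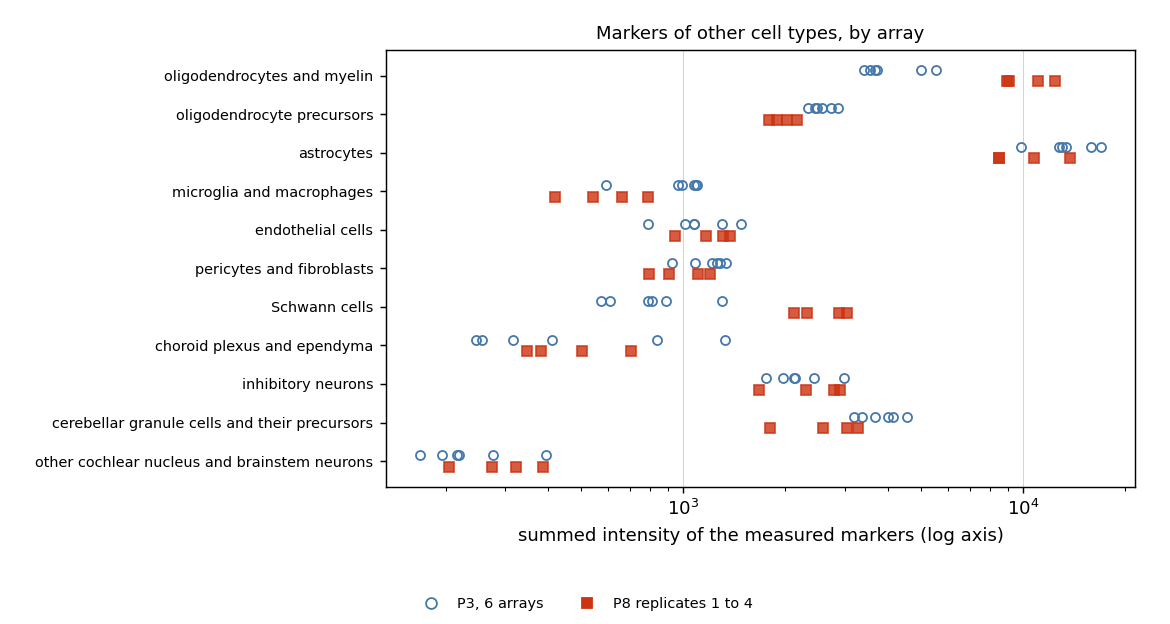
Summed intensity, on a log axis, of the measured markers of other cell types on each of the 6 P3 and 4 P8 arrays. Oligodendrocyte and myelin markers lie at 3410.5 to 5547.1 at P3 and 8977.4 to 12414.4 at P8, whereas the sums of astrocyte, microglia and granule cell markers overlap between the ages.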

How the data were processed

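Intensities were deposited by the authors on a linear scale, 1 value for each probe set of each array. GCRMA is the tool in the submitters' processing notes, without a version, and what turned its log2 output into linear values is unknown here. The mean without the lowest and highest 2% was 100 on every array, so no normalization was added. Of 31099 probe sets 20826 had 1 gene by the platform annotation and were used, with symbols updated through a RefSeq table (GRCr8, names only): 20764 by Entrez identifier, 2 by accession, 66 kept as annotated.

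Values were tested as log2(intensity + 1), which understates differences of dim genes, with limma 3.58.1 in R 4.3.3 (lmFit, eBayes) on 15243 probe sets. Tables and permutation tests used Python 3.11.15 and SciPy 1.17.1. Every adjusted p of a gene is limma's, adjusted by Benjamini-Hochberg. The number of arrays limits the precision. On simulated data the test called 5, 25, 42 and 48 of 50 probe sets changed 1.5, 2, 4 and 8-fold, with 7 unchanged ones called. The simulated noise was independent between probe sets and arrays, and far fewer probe sets were changed than were called in the data. These counts therefore check the procedure and do not estimate its power or false calls here. The members and gene lists were chosen with earlier results of these data known. Named were the 10 largest rises and falls among called genes without overlap and with the higher mean at log2 7 or more, up to 3 called genes of smallest p per list, and a fixed set of neuronal genes. Others were chosen after their values were seen. Replicate numbers were not used to pair P3 with P8: deviations of same-numbered arrays correlated at 0.083, 0.031, 0.053 and 0.038, below the 0.1 required, though each P8 array correlated best with its own number. Alternatives changed the filter, pseudocount, scaling, variance model, probe sets per gene, covariates, arrays fitted and test.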

Additional observations from a re-analysis of the deposited data

Results flagged for a closer look

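In 14 of 412 sets of values, each a named gene or an array measure at 1 age, a single array stood far from the others of its age (Dixon's criterion). Chance alone flags about 1 in 20 such sets. P8 replicate 3 was that array in 4 sets, with Lum at 6.92 (others 4.87 to 4.97), Hspa4l at 9.45 (8.76 to 8.84), Snap25 at 11.72 (11.38 to 11.43) and Itsn1 at 6.56 (6.76 on all others). P3 replicate 1 was low in 3, with Scn2b at 6.85 (7.89 to 8.38), Nsf at 8.62 (9.41 to 9.76) and Rps15a at 9.57 (10.17 to 10.52). P3 replicate 3 was high for Abcb1a at 4.1 (2.17 to 2.81) and low for Mcm5 at 5.45 (5.86 to 6.03). The others were Sema4d at 4.08 in P3 replicate 5 (4.59 to 4.87), Gad1 at 10.003 in P3 replicate 2 (9.19 to 9.44), Kcnc4 at 5.86 in P3 replicate 6 (6.45 to 6.78), Lgi3 at 7.9 in P8 replicate 2 (7.16 to 7.25) and Pmvk at 8.2 in P8 replicate 4 (8.46 to 8.48).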

How the results depend on the processing

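In every alternative with a value, 0 genes were called in the direction opposite to the call over 10 arrays. The counts of 906 rises and 848 falls moved by more than 1.5 times under several alternatives. A test against a 2-fold change called 8 and 4, the Gapdh 3' minus 5' signal as a covariate 509 and 463, all 20 arrays 1489 and 1464, and an exact Mann-Whitney test called none, 0 and 0. The last had a smallest adjusted p of 0.0668, with 1654 rises and 1464 falls at an unadjusted p under 0.05, where limma had 3707 genes in all. Leaving out each array in turn gave 567 to 852 rises and 475 to 864 falls. Both counts moved by more than 1.5 times without P3 replicate 2, 4 or 5. P3 with all 9 P8 arrays without P21, chosen after seeing the data, gave 616 and 601, a smaller move. The replicate number as a block also moved the counts by more than 1.5 times, to 59 and 39, of which 58 and 37 were called without it. Each P8 array correlated best with the P3 array of its number, a hint from the data and not the design. Array medians subtracted, quantile normalization, array weights, a filter at log2 6 or none, a pseudocount of 16, another variance model, 1 probe set per gene, the mean of a gene's probe sets and 15 arrays with P21 gave 718 to 1031 rises and 626 to 984 falls.

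Signs of named differences turned over all 20 arrays, and alike without P21, below 0 for Atp6v1b2 (-0.46), Syngr3 (-0.68), Nsf (-1.23), Glrb (-0.15), Thy1 (-0.44), Nfasc (-0.11), Nrxn2 (-0.93), Tuba8 (-0.13), Hdac11 (-0.77), Fbxo2 (-0.20), Dnajb9 (-0.068), Hspa4l (-0.69), Ndufs8 (-0.23), Dlst (-1.46), Pmvk (-0.80), Gaa (-0.75), Prdx5 (-0.029), Slc17a6 (-0.48), Vamp2 (-0.95), Bsn (-0.18), Gria3 (-0.77), Glra2 (-2.40), Nefl (-0.21), Nefm (-0.70), Sptbn4 (-0.11), Adam23 (-0.50), Syp (-0.006), Hspa5 (-0.12), Stxbp5 (-1.95), Tuba4a (-0.29) and Stmn2 (-0.11), and above 0 for Aurkb (0.20), Ccnb2 (0.19) and Mcm5 (0.079). The mean of a gene's probe sets turned Laptm5 (0.17), Pclo (-1.07), Gria2 (0.24), Gria3 (-0.51), Pfkm (-0.026) and Stmn2 (-0.10). Array weights turned Slc17a7 (0.059) and Glra2 (-0.077), quantile normalization Bsn (-0.009) and Nefm (-0.046), subtracted medians Gap43 (0.026), the Gapdh covariate Scn2a (0.034) and the replicate block Gria3 (-0.14) and Gap43 (0.063). Leaving out 1 array turned genes that were not called, over the ranges of Gria2 (-0.20 to 0.11), Slc32a1 (-0.32 to 0.14), Bsn (-0.076 to 0.22), Syt1 (-0.054 to 0.25), Gap43 (-0.15 to 0.15) and Gria3 (-0.50 to 0.63). The cause was not tested. Levels near background at either age limit the size of rises and falls alike.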
